A study of Mus musculus with 12 samples.

Results

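Histone genes were followed through meiotic maturation in oocytes of wild-type (WT) and *Alkbh5* knockout (KO) mice. They were taken as every gene whose symbol begins like a histone name (Hist1h to Hist4h, H1f, H2a, H2b, H3f, H3c or H4c), which gave 110 of the 56691 genes in the table. The rule used names only and no measured value, although it was set with earlier results of these data known. Symbols are those of the GENCODE annotation used for the table (for example *H1foo*, now called *H1f8*), and newer ones are given once.

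There were 12 messenger RNA libraries, 2 for each of 6 groups: WT and KO oocytes labelled germinal vesicle (GV, the arrested oocyte), germinal vesicle breakdown (GVBD, the return to meiosis) and MII (the second arrest, before fertilization). The groups shared the C57BL/6 background, the oocyte as source, M16 as culture medium and young females primed with gonadotropin, and no agent separated the genotypes. By the study's methods oocytes were collected with milrinone, which blocks the return to meiosis, and then cultured without it. Time in culture after its removal therefore went with stage. The knockout, which lacks the RNA demethylase ALKBH5 in all tissues through loss of exon 1, was the variable between genotypes. Each library was a small pool of oocytes, and nothing in the labels says that the 2 libraries of a group came from different animals, so p-values measure only the spread between these libraries. By the study's account breakdown of the germinal vesicle failed in most KO oocytes, and samples were taken by time in culture, so a KO library labelled GVBD or MII may hold oocytes at an earlier stage.

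Histones package DNA into nucleosomes. Most are made from replication-dependent genes, which lie in clusters and work in S phase. Their messages normally end in a stem-loop with no poly(A) tail. The replacement variants, among them the genes of the replacement H3 proteins (*H3f3a*, *H3f3b*) and of H2A.Z (*H2afz*, *H2afv*), are made outside S phase from ordinary polyadenylated messages. Linker histones of the H1 family bind the DNA between nucleosomes, and the oocyte has its own, encoded by *H1foo*. A fully grown oocyte does not replicate its DNA and hardly transcribes, so its histone messages are a stored supply that is used and removed during maturation and after fertilization. By the study's methods the libraries were made from polyadenylated RNA, so replication-dependent genes would be read here mainly as far as their transcripts carried a tail. A lower count can mean fewer transcripts or shorter tails, and the 2 cannot be told apart, nor can less RNA per oocyte and fewer oocytes in a pool.

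By the names the 110 genes fell into 5 classes: 1 oocyte linker gene (*H1foo*), 63 replication-dependent genes, 10 replacement variants, 27 germline or other variants, and 9 pseudogenes or antisense genes. The testis linker *Hist1h1t* and *Hist3h2ba* were counted with the germline or other variants. Counts were at 0 in every library for 25 genes and below 10 in every library for 62. At least 10 counts in every library were reached by 20 genes and at least 100 by 8. The 8 were *H1foo*, *H3f3a*, *H3f3b*, *H2afz* (*H2az1*), *H1f0* and *H2afy* (*Macroh2a1*), the replication-dependent *Hist1h2bc* and the processed pseudogene *H3f3c*.

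The stem-loop that ends replication-dependent messages is shown first, since by the study's methods polyadenylated RNA was read. The place of the stem-loop shows how much transcript is annotated beyond it. The motif searched for was GG, any 2 bases, CTTTT, any base, AG, any 2 bases and CC, on the transcript's own strand after the stop codon in GENCODE M21 transcripts (GRCm38). Each line gives the sequence 5′ to 3′, with the stem-loop in capitals and up to 5 flanking bases on either side in lower case. The position is that of the capitals. The members shown are those that later lines describe as different between groups, and *H2afx*, a replacement variant that carries a stem-loop too.
Hist1h1c (chr13:23739512-23739527, plus strand): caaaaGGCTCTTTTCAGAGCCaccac
Hist1h4d (chr13:23581950-23581965, plus strand): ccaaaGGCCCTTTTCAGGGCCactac
Hist1h4m (chr13:21812129-21812144, plus strand): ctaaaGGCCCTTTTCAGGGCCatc
Hist1h4h (chr13:23531458-23531473, plus strand): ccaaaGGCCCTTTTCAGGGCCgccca
Hist1h4i (chr13:22040966-22040981, minus strand): ttaaaGGCCCTTTTTAGGGCCaccac
Hist1h2bh (chr13:23542928-23542943, minus strand): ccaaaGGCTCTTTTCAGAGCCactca
Hist1h2ac (chr13:23683477-23683492, minus strand): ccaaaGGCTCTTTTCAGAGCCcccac
Hist2h2aa1 (chr3:96246032-96246047, plus strand): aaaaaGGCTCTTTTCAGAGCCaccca
Hist3h2a (chr11:58955172-58955187, plus strand): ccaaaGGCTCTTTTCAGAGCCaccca
H2afx (chr9:44335240-44335255, plus strand): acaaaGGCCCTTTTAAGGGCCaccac
The capitals form a short stem closed by a loop, the structure that the stem-loop binding protein holds. The most frequent form, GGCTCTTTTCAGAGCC, stood in 27 of the 46 histone genes with a match, and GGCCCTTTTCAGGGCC, the form of the *Hist1h4d*, *Hist1h4h* and *Hist1h4m* lines, in 7.

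The motif was found after the stop codon in 42 of the 63 replication-dependent genes, 3 of the 27 germline or other variants, 1 of the 10 replacement variants (*H2afx*) and in neither *H1foo* nor a pseudogene. Of the genes with at least 100 annotated bases after the stop, 27 of 53 histone genes held it within those 100 bases, against 1 of 19881 other protein-coding genes (0.00503%). A further 24 histone genes had fewer than 100 bases annotated there and 33 had none, so absence says nothing for those.

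Among replication-dependent genes with a stem-loop, how far the annotated transcript ran past it went with how many reads a gene received. In 20 of the 42 replication-dependent genes it ran on for more than 100 bases. Among these were *Hist1h1c*, at 840 bases, *Hist1h4d*, at 770, and *Hist1h2bh*, at 1214. Of the 20 genes, 14 received at least 100 counts over the 12 libraries and 2 received fewer than 12. In the other 22 the transcript ended within 100 bases, as in *Hist1h4m*, with 3 bases, *Hist2h2aa1*, with 35, and *Hist1h4h*, with 46, and 5 received at least 100 counts and 11 fewer than 12. The median level per length was 11.3 ERCC-scaled counts per kb of exon in the first set and 2.47 in the second. In the 21 replication-dependent genes without a match the median was 1.80, but the highest, *Hist1h2bc*, reached 890. Unique mapping lowers counts of near-identical genes, and its part in these differences was not tested. An ERCC-scaled count is a count corrected for the added ERCC spike-in RNA, so that libraries are set equal in spike-in. The letters AATAAA, the usual signal for poly(A) addition, stood in the last 40 bases, on the transcript's strand, of 7 of the 20 longer transcripts, *Hist1h1c* among them but not *Hist1h4d* or *Hist1h2bh*, and in 0 of the 22 shorter ones. Among 21598 other protein-coding genes the longest transcript held them in 58.1%. These are descriptions of annotated ends; where the transcripts of these oocytes ended was not measured.

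**Figure D1:**
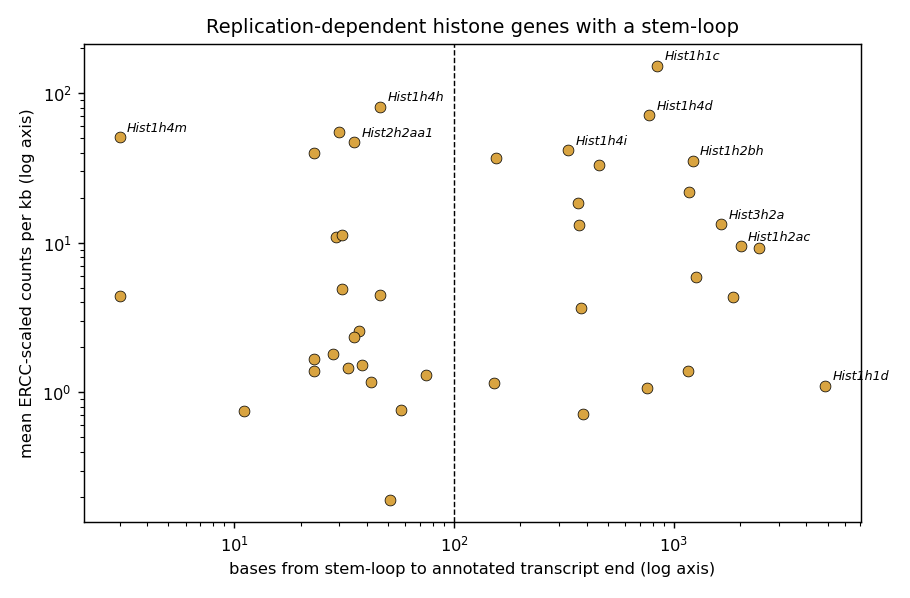
Each point is 1 of the 42 replication-dependent genes with a stem-loop. The horizontal axis gives the bases from the stem-loop to the annotated transcript end and the vertical axis the mean level over the 12 libraries in ERCC-scaled counts per kb, both on log axes; the dashed line stands at 100 bases. Levels reach 152 per kb (*Hist1h1c*) on the right, and most points on the left lie below the median of 11.3 of the right side, although 6, among them *Hist1h4h*, *Hist1h4m* and *Hist2h2aa1*, do not.

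The libraries held 28335815 to 39409401 counts on mouse genes and 221927 to 838409 on the ERCC sequences. *Alkbh5* received 5355 to 10181 counts in WT and 54 to 143 in KO libraries. All 12 oocyte markers, such as *Zp3* and *Gdf9*, had counts in every library. Cumulus and granulosa markers together took between 0.00399% and 0.00875% of the endogenous counts. Within a group, blood transcripts differed most between the 2 libraries of WT GV and those of KO MII. The sum of *Hbb-bs*, *Hba-a1* and *Ptprc* gave WT pairs of 412 and 93588 counts (GV), 63982 and 58655 (GVBD) and 226 and 1070 (MII). The KO sums were 50867 and 111221 at GV, 79 and 231 at GVBD and then 19663 and 16 at MII, where *Hbb-bs* was at 0 in replicate 2.

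*H1foo* dominated the histone messages. It carried 47.9% to 75.4% of all counts of the 110 genes in each library, the replacement variants 23% to 47.8%, and the 63 replication-dependent genes together 0.912% to 3.57%. Per length, its mean over the libraries was 61680 ERCC-scaled counts per kb of exon, against 6749 for *H3f3b*, 3554 for *H3f3a*, 1336 for *H3f3c*, 890 for *Hist1h2bc* and 639 for *H2afv* (*H2az2*). In every library *H1foo* was among the 171 genes with the most counts, and in the highest library it ranked 24. *H3f3b* ranked between 148 and 491. Of the somatic linker genes, *Hist1h1a* (*H1f1*) and *H1f0* had 339 and 251 per kb, *Hist1h1c* (*H1f2*) 152, *Hist1h1e* (*H1f4*) 1.39 and *Hist1h1d* (*H1f3*) 1.11. *Hist1h1b* (*H1f5*) had counts in 3 libraries, 19 at most, and *H1fx* (*H1f10*) had 0 in all 12.

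**Figure D2:**
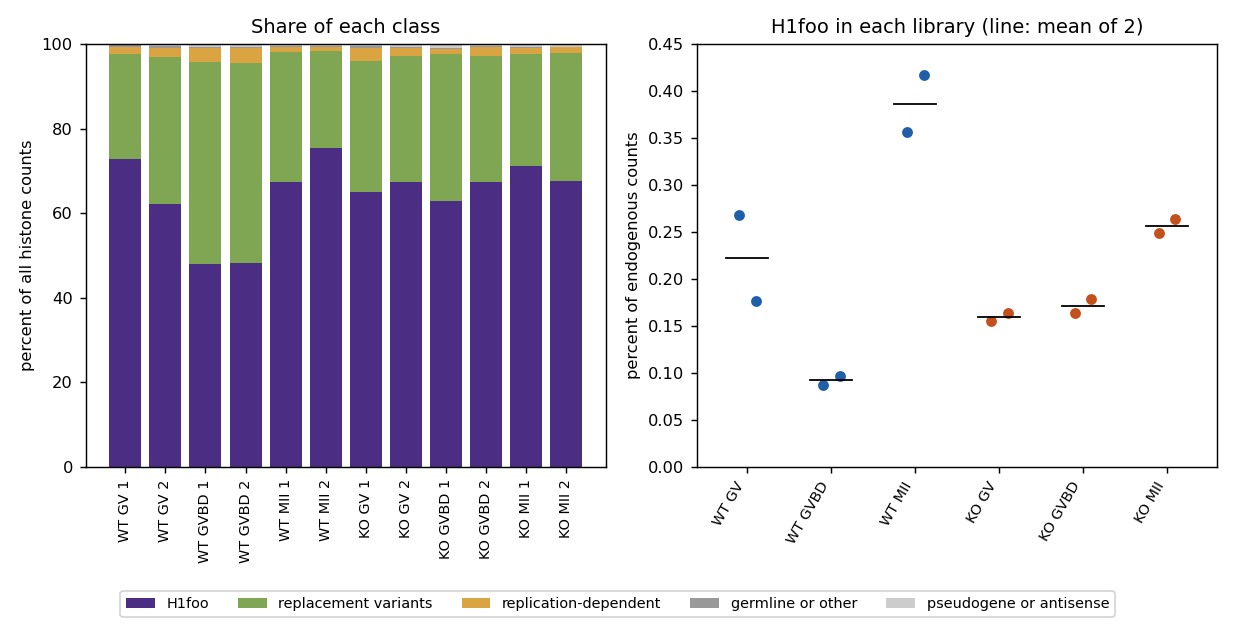
Left, the share of each histone class in all histone counts of each of the 12 libraries, in percent, as stacked bars. Right, *H1foo* as a percent of all endogenous counts, with 1 point per library and a line at the mean of the 2. *H1foo* holds 47.9% and 48.3% of histone counts in the WT GVBD libraries and at least 62.2% in the other 10, and its share of endogenous counts is lowest in WT GVBD.

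The level of *H1foo* was lower in WT GVBD than in any other group. The WT libraries held 113752 and 70264 ERCC-scaled counts at GV, 39592 and 29317 at GVBD and then 105391 and 79125 at MII. The KO libraries held 80129 and 73714 at GV, 79746 and 71155 at GVBD and then 88453 and 58299 at MII. Both WT GVBD libraries thus lay below all 10 others, which overlapped. Of all tested genes, 19.3% were lower in WT GVBD than in WT GV without overlap. The share lowest in WT GVBD among all groups was not computed. The group mean was 34454 ± 7265 (SD, n = 2) in WT GVBD and between 73376 and 92258 in the other groups. As a share of endogenous counts, which needs no spike-in, it was 0.0872% and 0.0964% in WT GVBD and 0.155% to 0.417% elsewhere. Both WT GVBD libraries were among the 5 richest in the blood transcripts above, whose part in this low level was not tested.

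The tests of this dip depended on the pair compared. By the edgeR quasi-likelihood test with Benjamini-Hochberg adjustment over all genes, used for every adjusted p below unless another tool is named, *H1foo* differed between WT GVBD and WT GV by a log2 fold change of −1.42 ± 0.37 (SE; adjusted p = 0.334). This did not pass. It did by DESeq2 (adjusted p = 0.0209) and with a replicate block (adjusted p = 0.0444), and over all alternatives in which no library was left out the adjusted p ran from 0.0209 to 0.563. From WT GVBD to WT MII it rose by 1.42 ± 0.58 (adjusted p = 0.0498), a comparison added after the values were seen. This call was lost whichever of the 4 libraries was left out (adjusted p 0.0985 to 0.427) and without the filter on low counts (0.104).

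In KO no such dip was measured. From GV to GVBD *H1foo* changed by −0.03 ± 0.26 in log2 (95% interval −0.62 to 0.56, adjusted p = 0.99). Tested directly, the KO change from GV to GVBD minus the WT change, also added later, was 1.39 ± 0.45 (adjusted p = 0.483). KO against WT at GVBD gave 1.13 ± 0.49 (adjusted p = 0.267), with both KO libraries above both WT libraries, as for 30.3% of all tested genes. These differences therefore did not pass across all genes. *H1foo* did not differ beyond the spread at GV, at −0.26 ± 0.25 (95% interval −0.86 to 0.34, adjusted p = 0.636), nor at MII, at −0.33 ± 0.57 (95% interval −1.45 to 0.79).

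A similar low point in WT GVBD was seen for *Hist1h2aa* (*H2ac1*), the gene of a testis H2A that is also stored in oocytes. Its WT libraries held 285 and 243 ERCC-scaled counts at GV, 93.9 and 65.5 at GVBD and then 187 and 136 at MII. Its KO libraries held 138 and 130 at GV, 120 and 142 at GVBD and then 143 and 68.8 at MII. Its WT GVBD to GV difference was −1.73 ± 0.52 in log2 (adjusted p = 0.444). Its KO against WT difference at GV was −0.97 ± 0.36 (adjusted p = 0.245). The KO libraries lay below the WT ones without overlap, as for 9.69% of all tested genes. Neither passed. *Hist1h1a*, a linker gene, was at 85.8 and 197 in WT GVBD and at 200 to 427 in the other WT libraries. *Hist1h2ba* (*H2bc1*), the neighbouring H2B gene of the testis type, was lower in WT GVBD too, at 80.5 and 93, against 208 and 123 in WT GV. It was lowest at MII, at 67 and 35.2 in WT. The KO libraries held 153 and 131 at GV, 93.7 and 136 at GVBD and then 70.1 and 24.4 at MII. Of all tested genes, 58% in WT and 61.4% in KO were lower at MII than at GV without overlap, and 19.3% were lower in WT GVBD than in WT GV. *Hist1h2ba* was not called in these comparisons. *Hist3h2ba* and *Hist1h1t* had at most 25 and 11 counts in a library.

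**Figure D3:**
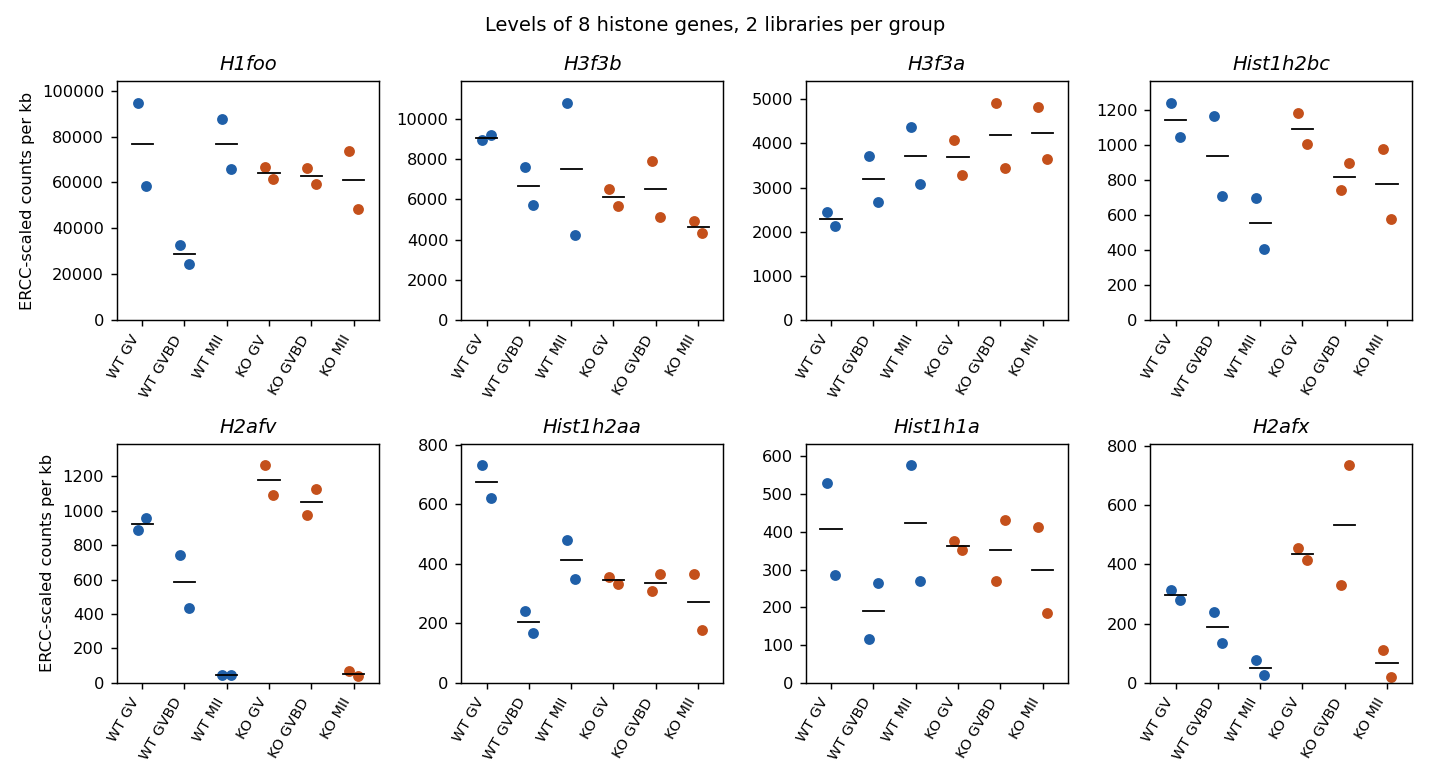
ERCC-scaled counts per kb of exon for 8 histone genes, with 1 point per library (WT blue, KO orange), a black line at the mean of 2 libraries and a linear axis from 0. *H1foo* and *Hist1h2aa* are lowest in WT GVBD among the WT groups, and *H2afv* is near 0 at MII in both genotypes.

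The comparison of MII with GV asks which stored messages are lost during maturation. In WT 10 of 36 tested histone genes were lower and none was higher. This share lies near that of all genes, of which 30.5% were lower and 30.9% were called in all (5821 of 18816). Called here means an adjusted p under 0.05 with a log2 fold change of at least 1 in size. The median log2 fold change was −1.17 over the 36 genes and −1.06 over all tested genes. The genes moved unlike each other: the median was −1.58 for the 9 replacement variants tested, with 5 lower, −1.21 for the 20 replication-dependent genes, with 5 lower, and 0.00 for *H1foo*.

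*H2afv*, which encodes the second H2A.Z protein, was the member whose fall was called in WT under all 10 alternatives. Its WT libraries held 1449 and 1562 ERCC-scaled counts at GV, 1208 and 706 at GVBD and then 72.6 and 70.8 at MII. Its KO libraries held 2061 and 1782 at GV, 1590 and 1835 at GVBD and then 111 and 64.5 at MII. The 4 MII libraries of both genotypes were thus far below the 8 others. Of all tested genes, 58% in WT and 61.4% in KO were lower at MII than at GV without overlap. The log2 fold change of MII against GV was −4.39 ± 0.58 in WT (adjusted p = 2.51e-12) and −4.45 ± 0.75 in KO (adjusted p = 0.0312), and the genotype difference in this change was −0.06 ± 0.70 (95% interval −1.59 to 1.46). The KO call was lost without either KO GV library (adjusted p = 0.376 without replicate 1 and 0.228 without replicate 2), with log2 fold changes of −4.34 and −4.55. Most of the fall lay between GVBD and MII, at −3.74 ± 0.78 in WT (adjusted p = 3.45e-05) and −4.29 ± 0.88 in KO (adjusted p = 0.00391), both comparisons added after the values were seen. Its sister gene *H2afz* fell less, by 1.52 ± 0.56 on the log2 scale in WT (adjusted p = 0.026), from 344 and 630 scaled counts at GV to 212 and 129 at MII. The GV library at 630 was the one rich in blood transcripts (93588 counts, against 412 in the other), whose part in this fall was not tested.

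*H2afx* (*H2ax*), the gene of the H2A that is phosphorylated at DNA breaks, had WT libraries of 432 and 386 scaled counts at GV, 331 and 188 at GVBD and then 105 and 36.6 at MII. The KO libraries held 630 and 574 at GV, 455 and 1016 at GVBD and then 153 and 29.4 at MII. MII was lower than GV without overlap in both genotypes, as for 58% of all tested genes in WT and 61.4% in KO, with a log2 fold change of −2.54 ± 0.61 for WT (adjusted p = 0.000257) and −2.72 ± 0.92 for KO, which did not pass (adjusted p = 0.109; 0.0119 by DESeq2). At GVBD both KO libraries were above both WT libraries, as for 30.3% of all tested genes, at 1.51 ± 0.60 (adjusted p = 0.222).

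Among the other replacement variants *H2afj* (*H2aj*) changed by −2.30 ± 0.82 in log2 and *H2afy*, the gene of macroH2A, by −1.58 ± 0.54 in WT (adjusted p = 0.0203 and 0.0153). *H2afj* had 104 and 133 scaled counts in WT GV against 30.3 and 17.8 in WT MII, and *H2afy* had 680 and 691 against 295 and 165, without overlap, which 58% of all tested genes shared. *H1f0*, the linker histone of resting cells, stood at −1.15 ± 0.54 (adjusted p = 0.0904). The genes of the replacement H3 were not called. *H3f3a* had 8590 and 7505 scaled counts in WT GV and 15318 and 10790 in WT MII, a log2 fold change of 0.70 ± 0.46 (adjusted p = 0.27). *H3f3b* had 26612 and 27363 in WT GV and 32132 and 12653 in WT MII, at −0.27 ± 0.44, so that its 2 MII libraries lay on either side of both GV libraries. The counts of *H3f3a* are uncertain. By name *H3f3a-ps1* and *H3f3a-ps2* are processed copies of it, and *H3f3c* is a processed pseudogene whose parent gene was not examined. Unique mapping can split reads between a gene and its copies. *H3f3aos* is an antisense gene whose reads are not told apart if strand was not used. *H3f3c* had 354 to 860 counts in a library, *H3f3a-ps1* 24 to 160, *H3f3a-ps2* 18 to 76 and *H3f3aos* 17 at most.

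The 5 replication-dependent genes lower in WT MII were *Hist2h2aa1* (an H2A gene, −4.93 ± 1.19, adjusted p = 0.000266), *Hist1h4i* and *Hist1h4h* (both H4, −3.57 ± 1.35 and −3.10 ± 0.95), *Hist1h1c* (a linker, −2.58 ± 0.70) and *Hist1h2bh* (an H2B, −2.52 ± 1.03, adjusted p = 0.0479). The size of the *Hist1h1c* change rested on 1 library. It had 49.8 and 389 scaled counts in WT GV, where the second library was the one rich in blood transcripts, and 49.5 and 24.1 in WT MII. Without that GV library its log2 fold change was −0.44 (adjusted p = 0.948), and the call was also lost without either WT MII library. The counts of the others were low. *Hist2h2aa1* had 23 and 79 counts in WT GV and 6 and 0 in WT MII, and *Hist1h4i* had 31 and 24 against 7 and 1. *Hist1h2bh* had 18 and 72 against 14 and 21, and *Hist1h4h* had 101 and 44 against 15 and 19. Of the WT GV libraries, the one rich in blood transcripts was thus the higher for *Hist2h2aa1* and *Hist1h2bh*, but not for *Hist1h4i* and *Hist1h4h*. The part of blood transcripts in these falls was not tested. *Hist1h2bc*, the one replication-dependent gene with many reads, had 1438 and 1211 scaled counts in WT GV and 806 and 473 in WT MII, at −1.05 ± 0.51 (adjusted p = 0.103; 0.0439 by DESeq2). No stem-loop of the searched form was found in its transcripts. The count of 10 genes became 4 without WT GV replicate 1, 3 without WT GV replicate 2 and 3 without WT MII replicate 2.

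The scaling changed the size of these changes, which genes were called and, for some genes, the direction. With TMM scaling, which centres the libraries on their own genes, the median of all genes between WT GV and MII moved from −1.06 to −0.14, and of 5 histone genes called 3 were higher and 2 lower. *H3f3a* was higher at 1.63 (adjusted p = 0.00493), as were the processed pseudogenes *H3f3c* and *H3f3a-ps1*. *H2afv* and *H2afx* were lower, at −3.40 and −1.71. *H1foo* stood at 0.93 (adjusted p = 0.0749).

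In KO 1 of 33 tested histone genes, *H2afv*, was lower at MII than at GV, where 3.28% of all genes were called (616 of 18777). The median was −1.37 over these 33 genes and −1.17 over all genes. The count became 0 without either KO GV library, 14 without KO MII replicate 1 and 4 without KO MII replicate 2, so it followed single libraries. No histone gene differed between genotypes in its GV to MII change (0 of 40 by edgeR, 0 at an unadjusted p under 0.05 and 0 by DESeq2), nor did any of the 20807 genes tested (0%).

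**Figure D4:**
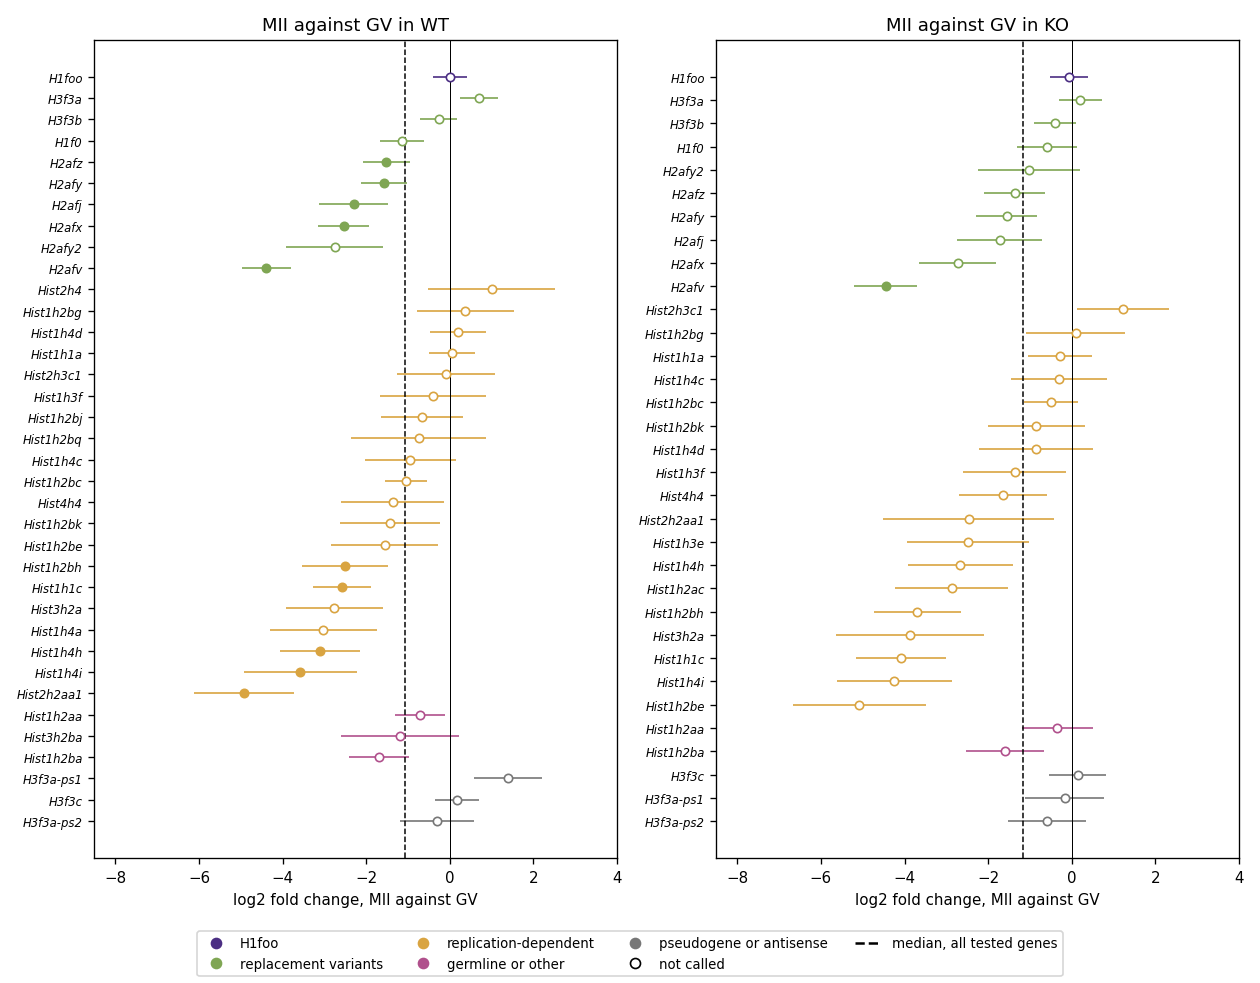
Log2 fold change of MII against GV with its SE for each tested histone gene, 36 in WT (left) and 33 in KO (right), grouped by class. Filled points were called, open points were not, and the dashed line is the median of all tested genes (−1.06 and −1.17). *H1foo*, *H3f3a* and *H3f3b* lie to the right of this line in both panels and *H2afv* far to its left.

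From GV to GVBD few genes changed in either genotype. In WT 0 of 38 histone genes were called by edgeR, 3 had an unadjusted p under 0.05, and DESeq2 called 1 (*H1foo*), beside 0.0511% of all genes (10 of 19566). In KO 0 of 34 were called, 1 had an unadjusted p under 0.05 and DESeq2 called 1 (*Hist1h1c*), beside 0.22% of all genes (42 of 19064). The genotype difference in this change called 0 of 42 by edgeR (4 at an unadjusted p under 0.05, and 2, *Hist1h1c* and *Hist1h4m*, by DESeq2), beside 0.00936% of all genes.

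From GVBD to MII, comparisons added after the values were seen, 10 of 36 histone genes were called in WT, 9 lower and *H1foo* higher, beside 27.8% of all genes (5339 of 19211), of which 27.1% were lower and 0.682% higher. The 9 were *H2afv*, *H2afz*, *H2afx*, *Hist1h1c*, *Hist1h4i*, *Hist1h4m*, *Hist2h2aa1*, *Hist1h2ac* and *Hist3h2a*, with log2 fold changes from −1.87 (*H2afx*) to −5.47 (*Hist1h4m*). The blood sum went from 63982 and 58655 counts to 226 and 1070 between these groups, and *Hist1h1c*, *Hist1h4m* and *H2afz* were higher in each of the 5 libraries richest in blood transcripts than in the 7 others, so for these genes stage and blood transcripts cannot be told apart here. With TMM scaling 6 of the 10 called were higher and 4 lower. In KO 2 of 35, *H2afv* and *H2afx* (−3.01 ± 0.94, adjusted p = 0.0433), were lower, beside 7.2% of all genes called and 7.12% lower. Leaving out WT GVBD replicate 1 or 2 lowered the WT count to 3 or 4, and without KO GVBD replicate 1 or 2 or KO MII replicate 2 the KO count was 0.

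KO against WT at GVBD was the one genotype comparison with histone genes called. Of 38 tested 2 were lower and none higher, a share of the same order as that of all genes, of which 2.54% were called (494 of 19462) and 1.73% were lower. They were the linker gene *Hist1h1c* and the H4 gene *Hist1h4m*, whose stem-loops are printed above. The median log2 fold change was 0.14 over the 38 genes and 0.23 over all genes.

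*Hist1h1c* had 703 and 332 scaled counts in WT GVBD and 21.4 and 93.6 in KO GVBD, a log2 fold change of −3.15 ± 0.72 (adjusted p = 0.0196). *Hist1h4m* had 49 and 40 counts in WT GVBD and 0 in both KO GVBD libraries (adjusted p = 0.0161). Set against a floor of 3 counts per KO library it was at least 12.3-fold lower. Its fitted value of −8.42 depends on the prior count and is no bound. Both calls were lost without WT GVBD replicate 1 (adjusted p = 0.258 and 0.273) or replicate 2 (0.322 and 0.36), and that of *Hist1h1c* also without KO GVBD replicate 1 (0.203). Neither passed with TMM scaling (0.155 and 0.123) or with a replicate block (0.0845 and 0.0969).

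The same 2 genes were highest in the libraries rich in blood transcripts, though their levels did not follow the blood sum within these libraries. *Hist1h1c* had 49.8 and 389 scaled counts in WT GV and 921 and 200 in KO GV, and at most 53 at MII. Its 5 highest libraries were the 5 with the highest blood sums: WT GV replicate 2, both WT GVBD and both KO GV libraries. Within WT GV, where only replicate 2 had a high blood sum, it was 7.81-fold higher in that library. *Hist1h4m* had 0 and 16 counts in WT GV, 55 and 9 in KO GV, and at most 6 at MII, with the same 5 libraries at the top. Of the genes tested at GVBD, 3.05% (594) were higher in each of these 5 libraries than in all 7 others. Among histone genes 3 of 38 were (*Hist1h1c*, *Hist1h4m* and *H2afz*), and among all genes called lower in KO at GVBD 107 of 337 (31.8%). The 5 libraries were set apart after the values were seen. Since both WT GVBD libraries had a high and both KO GVBD libraries a low blood sum, genotype and blood transcripts cannot be told apart at this stage.

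**Figure D5:**
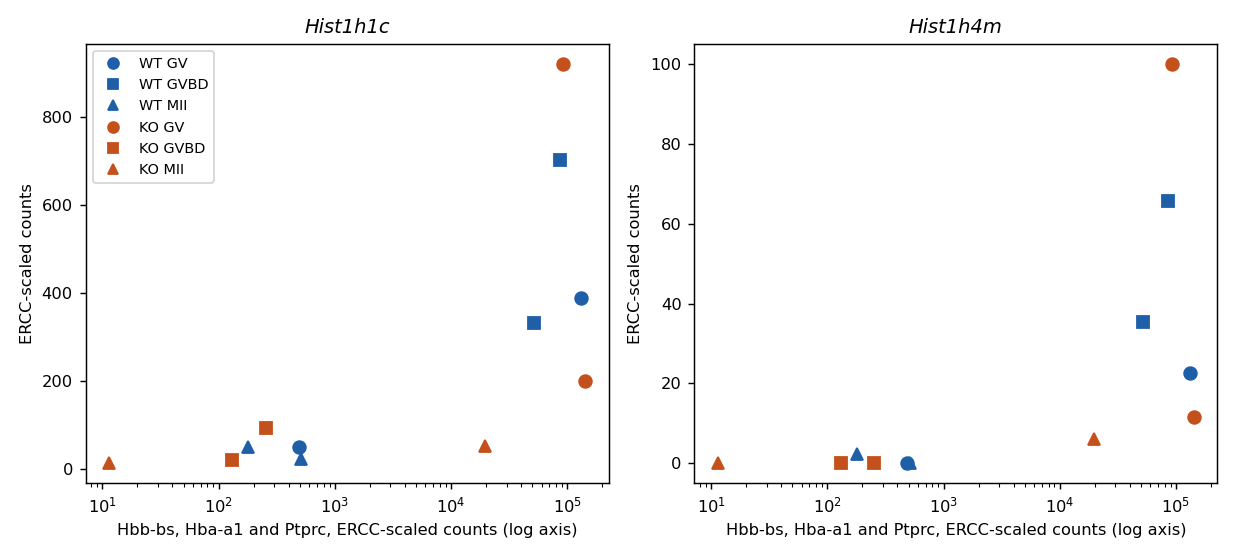
Scaled counts of *Hist1h1c* (left) and *Hist1h4m* (right) against the scaled sum of the blood markers on a log axis, with 1 point per library, colour for genotype and shape for stage. The 5 libraries on the far right, among them both WT GVBD libraries, have the 5 highest values of either gene, and both KO GVBD libraries lie at the lower left.

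At GV and MII no histone gene was called between genotypes. At GV it was 0 of 38 by edgeR, 3 at an unadjusted p under 0.05 and 0 by DESeq2, beside 0.0977% of all genes (19 of 19452). At MII it was 0 of 29, 1 and 0, beside 0.803% of all genes (141 of 17566). Over all stages it was 0 of 43, 1 and 1, beside 1.26% (278 of 22004). At GV the genes of the replacement H3 stood in opposite directions, each without overlap of the groups. Of all tested genes 42.2% were higher and 9.69% lower in KO without overlap at this stage. *H3f3a* had 14276 and 11528 scaled counts in KO against 8590 and 7505 in WT, at 0.68 ± 0.19 (adjusted p = 0.182), and *H3f3b* had 19441 and 16919 against 26612 and 27363, at −0.57 ± 0.16 (adjusted p = 0.186). *H2afv* was at 0.35 ± 0.20 at GV, 0.84 ± 0.53 at GVBD and 0.29 ± 1.02 at MII, none of which passed.

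The gene with 1 unadjusted p under 0.05 over all stages was *Hist1h4d*, a replication-dependent H4 gene. The WT libraries held 144 and 81.8 scaled counts at GV, 56.3 and 232 at GVBD and then 175 and 82.9 at MII. The KO libraries held 36.4 and 52.3 at GV, 8.22 and 51.8 at GVBD and then 47 and 2.15 at MII. All 6 KO libraries lay below all 6 WT libraries, whose lowest was 56.3. The gene was picked by its unadjusted p in this same comparison, so this separation adds no support. The share of all genes separated in this way was not computed. The log2 fold change over the stages was −2.00 ± 0.66 (adjusted p = 0.135). It passed by DESeq2 (adjusted p = 0.0254) and without the filter on low counts (0.012), and by stage it was −1.34 ± 0.60, −2.24 ± 0.85 and −2.40 ± 1.08, with adjusted p-values of 0.313, 0.188 and 0.495. H4 genes are near-identical in their coding part, so unique mapping rests on the ends of the transcript.

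The genes that make and place histones were measured alongside. Of 13 genes of histone mRNA processing and turnover, 2 fell from GV to MII in WT and none rose, beside 30.5% of all genes lower: *Lsm10*, a subunit of the particle that cuts histone messages, with a log2 fold change of −4.57 ± 0.53 (adjusted p = 4.4e-16), and *Eri1*, a nuclease that trims their ends, with −1.60 ± 0.57 (adjusted p = 0.0195). The call of *Eri1* was lost without either WT GV library (0.372 and 0.245) or WT MII replicate 2 (0.0926). In KO *Lsm10* fell too, at −3.54 ± 0.64 (adjusted p = 0.0347), a call lost without either KO GV library (0.352 and 0.17). Its MII libraries held 1090 to 3247 scaled counts in all and its GV libraries 23443 to 30180. The median of the 13 was −0.31 in WT, against −1.06 for all genes. *Slbp*, whose protein binds the stem-loop shown above, had 12484 and 13536 scaled counts in WT GV and 30614 and 19402 in KO GV, at 0.94 ± 0.24 between genotypes (adjusted p = 0.178), and from GV to MII it stood at 0.83 ± 0.45 in WT and −0.10 ± 0.50 in KO, neither of which passed.

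Of 29 chaperones and deposition factors, 3 were called lower at MII than at GV in WT, beside 30.5% of all genes. They were *Chaf1a* and *Chaf1b*, subunits of the factor that places new H3 and H4 on replicated DNA (−1.93 ± 0.49 and −3.46 ± 0.58, adjusted p = 0.000622 and 4.12e-08), and *Srcap*, the ATPase that exchanges H2A.Z into nucleosomes (−3.54 ± 0.89, adjusted p = 0.0005). *Chaf1b* kept its call without each library in turn, and *Chaf1a* lost it without WT GV replicate 1 or 2 (0.265 and 0.162). That of *Srcap* rested on WT GV replicate 2. It had 10.7 and 240 scaled counts in WT GV and 21.5 and 0.482 in WT MII, so the groups overlapped, and without WT GV replicate 2 its log2 fold change was 0.023 (adjusted p = 0.999). Without WT MII replicate 1 or 2 its adjusted p was 0.113 or 0.444. The same 3 were called lower at MII than at GVBD in WT, beside 27.1% of all genes. In KO none of the 29 was called from GV to MII, and *Chaf1b* was lower at MII than at GVBD (−2.76 ± 0.85, adjusted p = 0.0406), which was lost without KO GVBD replicate 1 or 2 (0.931 and 0.648) or KO MII replicate 2 (0.0705). Between genotypes 1 of 29 was called at MII, *Srcap*, with 464 and 121 counts in KO against 27 and 1 in WT (4.68 ± 1.16, adjusted p = 0.0118), beside 0.803% of all genes. The call was lost without either WT MII library (0.323 and 1) or KO MII replicate 1 (0.0817). *Npm2*, the egg nucleoplasmin, and *Hira*, which places the replacement H3, were not called in any comparison, nor was *Cenpa*, the H3 of the centromere, which stood at 0.65 ± 0.25 in KO against WT over all stages (adjusted p = 0.182).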

How the data were processed

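Per the labels and the study's methods, polyadenylated RNA of pooled oocytes with added ERCC spike-in was sequenced in 12 libraries. The protocol given with the samples describes a bulk preparation, unlike the single-tube cDNA amplification of the methods. The deposited values are counts, given as whole numbers per gene without normalization. The submitters' processing notes name cutadapt 1.9, HISAT2 2.0.4 and StringTie 1.3.4d on mm10 (GRCm38); the use of strand is not given in the sources used here. By the methods only uniquely mapped reads were kept, which lowers counts of near-identical genes, and without molecular identifiers floors cover counting error only.

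Symbols came from GENCODE M21 and matched 52073 of 56691 genes (91.9%). ERCC-scaled counts are counts times the mean ERCC total over the library's ERCC total. Each comparison was fitted to all genes with edgeR 4.0.16 (R 4.3.3; glmQLFit, glmQLFTest, two-sided), with library sizes in proportion to ERCC counts and filterByExpr at sequencing depth. Alternatives were TMM scaling, no filter, the filter at ERCC-scaled sizes (added later), DESeq2 1.42.0, all 12 libraries in one model, a replicate block and fits without each library in turn. Fits were also run on simulated data with changes set only in well-counted genes, which says nothing about calls in genes with few counts. Of 12 comparisons, 3 were added after values were seen. The genes named are a roster of linker and variant genes, every gene called in a comparison and the 4 with the highest mean level per class, and from the lists of related genes those called plus *Slbp*, *Npm2*, *Cenpa* and *Hira*. Members, lists and rules were chosen with earlier results of these data known.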

Additional observations from a re-analysis of the deposited data

How the results depend on the processing

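The number of histone genes called changed with the processing as follows. KO against WT at GVBD called 2, and 0 with TMM scaling, with all 12 libraries in one model or with a replicate block. KO against WT over all stages called 0, and 1 without the filter on low counts or by DESeq2. MII against GV in WT called 10, and 5 with TMM scaling, 3 with all 12 libraries and 6 with the replicate block. MII against GV in KO called 1, and 4 without the filter, by DESeq2 or with the replicate block, and 5 with all 12 libraries. GVBD against GV called 0 in each genotype, in WT 1 by DESeq2 or with the replicate block, and in KO 2 without the filter and 1 by DESeq2. MII against GVBD called 10 in WT and 5 with all 12 libraries, and 2 in KO and 1 with TMM scaling or the filter at ERCC-scaled sizes. The change from GV to GVBD compared between genotypes called 0, and 2 without the filter or by DESeq2. The cause of these changes was not tested. Leaving out 1 library gave 0 to 4 for KO against WT at GVBD, 0 to 1 at GV and at MII, 0 to 0 over all stages, 3 to 8 and 0 to 14 for MII against GV in WT and KO, 0 to 2 for GVBD against GV in each, 3 to 7 and 0 to 2 for MII against GVBD in WT and KO, and 0 to 0 for both genotype differences.

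The replicate numbers pair nothing by the labels. The correlation of same-numbered deviations was −0.223 between WT and KO at GV, 0.141 at GVBD and −0.187 at MII over 13273 genes. Besides the counts above, the replicate block changed no count by over 1.5 times. Crossed numbers, added later, called 0 histone genes at GV and at MII.

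Some log2 fold changes changed sign. With TMM scaling *H1foo* stood at 0.10 for GVBD against GV in KO, 1.06 for MII against GV in KO and 0.026 for how the genotypes differed in the GV to MII change. *H3f3b* stood at 0.57 for MII against GV in WT, *Hist1h2bc* at 0.62 for MII against GV in KO and *H2afv* at −0.042 for KO against WT at MII. With 1 library left out, *H1foo* ranged from −0.11 to 0.052 for GVBD against GV in KO, from −0.56 to 0.13 for KO against WT at GV, from −0.40 to 0.20 and from −0.30 to 0.39 for MII against GV in KO and WT, and from −0.46 to 0.23 for how the genotypes differed in that change. *H2afv* ranged from −0.15 to 0.63 for KO against WT at MII and from −0.51 to 0.28 for how the genotypes differed, *H3f3b* from −1.09 to 0.25 for MII against GV in WT and *Hist1h1c* from −0.13 to 3.48 for KO against WT at GV.

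With 2 libraries per group and few counts, most replication-dependent genes could not be tested: 38 of 110 histone genes at most passed the filter in a comparison of 2 groups.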
